A study of Homo sapiens with 8 samples.

Results

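The p53 target genes described here are 31 protein-coding genes that are induced by the tumour suppressor p53, chosen by name from the 59385 genes of the count matrix and followed across all 8 libraries. All 31 were present in the matrix, and all 31 passed the filter on low counts that left 16228 genes for testing. By role they are 6 genes of cell cycle arrest, 2 of the feedback onto p53, 12 of apoptosis and survival, 4 of DNA repair and nucleotide supply and 7 of metabolism and stress. The choice of genes used no measured value of the comparisons below, but it was made with earlier results of these data known.

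All 8 libraries were made from IHCF, immortalized human cardiac fibroblasts, a cell line of the matrix-producing cells of the heart. Knockdown cells carried a lentiviral short hairpin RNA (shRNA) against eIF4G2, and scramble cells carried a lentiviral scramble shRNA that targets no gene. EIF4G2, also called DAP5, is a translation initiation factor related to the scaffold EIF4G1. Serum was withheld from both for at least 6 h before TGF-beta was given for 24 h, so every group shares the treatment and none is untreated. Polysomal RNA (mRNA that sediments with several ribosomes) and total RNA were sequenced from each, with 2 libraries in each of the 4 groups: knockdown polysome, scramble polysome, knockdown total and scramble total. The labels name 1 hairpin against eIF4G2 and no rescue, so off-target effects of the hairpin and loss of EIF4G2 cannot be told apart. How the line was immortalized is not given in the sources used here, although some methods of immortalization act on p53 itself. The 2 libraries of a group are biological replicates by label, with no statement on separate cultures, and the p-values below cover only the spread seen among them, which may be technical.

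p53 is a transcription factor that is kept low in unstressed cells by the ubiquitin ligase MDM2, itself a p53 target, and that accumulates after DNA damage and other stress. It binds a response element made of paired half-sites near its target genes and raises their transcription. The products halt the cell cycle (CDKN1A, which encodes the kinase inhibitor p21), start apoptosis (BAX, BBC3, PMAIP1, FAS), repair DNA (DDB2, XPC, POLH) or dampen p53 again (MDM2, PPM1D). In cardiac fibroblasts p53 and p21 are known for their part in growth arrest and senescence. Several mRNAs of stress and cell death pathways have been reported to use EIF4G2 when cap-dependent initiation is impaired, which is why their place in polysomes after knockdown is described here.

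Each library held between 18043714 and 24590030 counts. The 31 genes together took 0.2 and 0.31% of the counts in knockdown polysome libraries, 0.213 and 0.272% in scramble polysome libraries, 0.218 and 0.22% in knockdown total libraries and 0.214 and 0.217% in scramble total libraries. EIF4G2 stood at 293.1 and 326.9 CPM in knockdown total RNA, against 793 and 784.5 CPM in scramble total RNA (log2 fold change −1.35 ± 0.18 SE; edgeR quasi-likelihood test adjusted p = 0.0504; DESeq2 adjusted p = 4.05e-10). CPM here are counts per 1000000 of a library size scaled by TMM, the trimmed mean of M-values. In polysomal RNA EIF4G2 stood at 243.8 and 334.3 CPM in knockdown cells, against 874.6 and 876.3 CPM in scramble cells (log2 fold change −1.60 ± 0.18; edgeR adjusted p = 0.0276). The summed level of 12 fibroblast markers was 6640 to 7436 CPM in knockdown and 6677 to 7371 CPM in scramble libraries over both fractions, carried by COL1A1, VIM and FN1. Of the 11 fibroblast markers tested, 8 lay below 0 between knockdown and scramble polysomes (median log2 fold change −0.42) and 5 in total RNA (median 0.02). COL1A1 fell in polysomes by DESeq2 alone (−0.59 ± 0.19 in edgeR, adjusted p = 0.244; DESeq2 adjusted p = 0.0177). DCN, a defining fibroblast proteoglycan, was at 0 to 0.433 CPM in the 8 libraries and PDGFRA at 0.271 to 2.16 CPM. The keratins KRT8 and KRT18 had 342.2 to 1641 CPM, while MYH6, MYH7, CD3E and ESRP1 were at 0 in every library. The summed level of 7 epithelial markers was 2237 to 2269 CPM in knockdown and 3130 to 3202 CPM in scramble polysomes, and 1166 to 1423 CPM in knockdown and 1365 to 1394 CPM in scramble total RNA. All 5 that were tested lay below 0 in both fractions, and edgeR and DESeq2 called 0. At an unadjusted edgeR p under 0.05, 4 of them were lower in polysomes (7.89% of all tested genes) and 1 in total RNA (1.02%). The part of these markers in the results for the p53 targets was not tested.

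The response element itself can be read in the promoters of the genes. RefSeq promoter windows (GRCh38.p14, 250 bases before to 50 after a transcript start) were matched for 26 of the 31 genes. The scan allowed up to 3 mismatches in the 20 bases of the p53 response element and up to 13 bases between its 10-base half-sites, and because the element is a palindrome 1 pass reads both strands. An element was found in 13 of 39 windows (33.3%) and in 12 of 26 genes (46.2%), against 12.8% of 35116 windows and 15.3% of 27305 genes in the whole table. Elements of 5 genes are shown because they are the ones with at most 2 mismatches, with the half-sites in capitals and any spacer in lower case, each 5′ to 3′ on the strand of its gene.
AEN (chr15:88621306-88621325, plus strand, exon): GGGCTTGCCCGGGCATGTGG
DDB2 (chr11:47214979-47214999, plus strand, exon): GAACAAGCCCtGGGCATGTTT
FAS (chr10:88991309-88991328, plus strand, exon): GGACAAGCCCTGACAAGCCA
FDXR (chr17:74872996-74873025, minus strand, exon): GGGCGGGCCCgggcaggagcGGGCTTGCCC
MDM2 (chr12:68808903-68808962, plus strand, intron, with flanking bases in lower case): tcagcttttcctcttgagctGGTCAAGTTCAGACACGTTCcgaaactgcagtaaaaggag
The DDB2 element had 0 mismatches, and the other 4 had 2 each. The AEN element begins 34 bases before its RefSeq transcript start, the FDXR element 31 bases before and the FAS element 122 bases before. That FAS start is the one farthest downstream. Windows of the earlier FAS starts (chr10:88990548-88990847 and chr10:88990664-88990963) end before the element and held none. The MDM2 element lies in an intron, 94 and 101 bases before the starts of the inner MDM2 transcripts. This is the second promoter of that gene, the one driven by p53. The windows of the outer MDM2 starts held no element. These matches describe letters in the window and not binding, and no library here measures p53 on DNA.

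MDM4, the partner of MDM2 in holding p53 down, had 3.58 and 4.92 CPM in knockdown and 4.28 and 2.38 CPM in scramble polysomes, and it was lower there than in total RNA (knockdown log2 fold change −2.66 ± 0.29, edgeR adjusted p = 1.54e-05; scramble −2.87 ± 0.29, edgeR adjusted p = 8.48e-06). MDM4 in total RNA had 29.3 and 24.1 CPM in knockdown cells, against 23.3 and 25.5 CPM in scramble cells.

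All 31 genes were detected in every library, at levels that spanned a wide range. Levels per kilobase were taken over all annotated exons of a gene, merged where they overlap. On that length CDKN1A was the highest, at 75.2 CPM per kb in knockdown total RNA and 72 in scramble total RNA. It was followed in scramble total RNA by PMAIP1 (57.6), PLK2 (51.5), BAX (33.9) and BCL2L1 (20.1). The lowest was SPATA18, a regulator of mitochondrial clearance, at 0.211 CPM per kb in knockdown and 0.199 in scramble total RNA. In polysomal RNA the highest level was again that of CDKN1A, at 373 CPM per kb in knockdown and 270 in scramble cells. GDF15, a secreted stress cytokine, followed at 106 CPM per kb in knockdown and 94.1 in scramble polysomes. These ranks depend on the length used. The merged exons of BAX cover 2587 bases and its transcript 793, against 3050 and 2267 for CDKN1A. With transcript length in place of merged exons, BAX would rank above CDKN1A in total RNA and above GDF15 in polysomes. Over all libraries the 31 genes ran from 0.768 CPM (SPATA18, a scramble total library) to 1584 CPM (CDKN1A, a knockdown polysome library).

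In total RNA no p53 target passed the test between knockdown and scramble cells. edgeR called 0 of the 31 higher and 0 lower, and over all 16228 genes it called 0% in either direction. DESeq2 also called 0 of the 31, against 0.175% of genes higher and 0.0643% lower over all genes with an adjusted p, and it gave SPATA18 none. On the log2 scale 21 of the 31 genes lay above 0 and 10 below, with a median of 0.09 against 0.02 over all tested genes. At an unadjusted p under 0.05 edgeR had 1 of 31 higher and 1 lower, against 2.66 and 1.02% of all tested genes. SEs of the 31 log2 fold changes ran from 0.13 to 0.52 with a median of 0.21. Each SE rests on 1 estimate of spread per gene that the total and polysome libraries share. Fitted apart, the common biological coefficient of variation (relative spread between replicates) was 0.113 in total and 0.265 in polysome libraries. The SEs are therefore not a measure of the spread in total RNA alone. Differences well above their SE were also not called with 2 libraries a group. BAX at 0.525 did not pass, and EIF4G2 itself at −1.35 had an edgeR adjusted p of 0.0504. A missing call therefore does not show that a gene was unchanged. In bulk libraries fewer cells that express a gene and less of its RNA per cell cannot be told apart.

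BAX (chr19:48954815-48961798, plus strand, GENCODE v29 on GRCh38), the pore-forming protein that opens the outer mitochondrial membrane, was the gene with the smallest p in total RNA. BAX had 136.8 and 115.6 CPM in knockdown cells, against 85.4 and 90 CPM in scramble cells. Both knockdown libraries lay above both scramble libraries (log2 fold change 0.525 ± 0.14; edgeR unadjusted p = 0.00387, adjusted p = 1; DESeq2 adjusted p = 0.194). With the 4 total libraries fitted alone the adjusted p was 0.198.

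PMAIP1 (chr18:59899948-59904306, plus strand), which encodes the BH3-only protein NOXA, was the only one of the 31 on the lower side at that level. It had 97.6 and 90.2 CPM in knockdown cells, against 130.1 and 127.3 CPM in scramble cells. The groups did not overlap (log2 fold change −0.46 ± 0.14; edgeR unadjusted p = 0.00642, adjusted p = 1; DESeq2 adjusted p = 0.225). GADD45A, a stress sensor that interferes with cell cycle kinases, came next at 49.9 and 43.1 CPM in knockdown cells, against 36.9 and 36.5 CPM in scramble cells (0.34 ± 0.16; edgeR unadjusted p = 0.0564). Its knockdown libraries both lay above the scramble ones.

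The best known transcriptional readouts of p53 had no call between hairpins in total RNA. CDKN1A had 238.1 and 220.6 CPM in knockdown cells, against 216.1 and 223.3 CPM in scramble cells (log2 fold change 0.06 ± 0.31; edgeR adjusted p = 1). MDM2 had 68.7 and 74.8 CPM in knockdown cells, against 59.3 and 60 CPM in scramble cells (0.27 ± 0.24; edgeR adjusted p = 1). The CDKN1A groups overlapped, while both MDM2 knockdown libraries lay above the scramble ones, by a difference close to its SE. That SE also takes in the polysome replicates. For MDM2 the log2 difference of replicate 1 minus 2 was 0.90 in knockdown polysomes and 0.32 in scramble polysomes. In total RNA it was −0.12 in knockdown and −0.02 in scramble cells. BBC3, which encodes the BH3-only protein PUMA, had 9.23 and 6.69 CPM in knockdown cells, against 6.11 and 7.09 CPM in scramble cells. FAS, a death receptor, had 8.07 and 8.04 CPM in knockdown cells, against 7.51 and 8.18 CPM in scramble cells. GDF15 had 33.3 and 25.9 CPM in knockdown cells, against 26.6 and 27.2 CPM in scramble cells. Values of knockdown and scramble libraries overlapped for each of these 3 genes.

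Over the 31 genes, both knockdown total libraries lay above both scramble ones for 8 (25.8%; 24.8% of all tested genes) and below both for 4 (12.9%; 23.1%). The 8 were BAX, GADD45A, MDM2, CCNG1, PLK3, TP53I3, AEN and PHLDA3, and the 4 were PMAIP1, TIGAR, XPC and PLK2. The share on the higher side was close to the share of all genes. By role the median log2 fold change was 0.10 in the arrest genes and in those of apoptosis and survival. It was 0.09 in the metabolism and stress genes and −0.06 in the repair genes. XPC, the damage sensor of nucleotide excision repair, had 17.1 and 24.9 CPM in knockdown cells, against 26.1 and 28.3 CPM in scramble cells (−0.37 ± 0.23; edgeR unadjusted p = 0.129). Of its exonic bases 39% overlap genes on the opposite strand, LSM3 among them, which makes its counts uncertain.

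**Figure D1:**
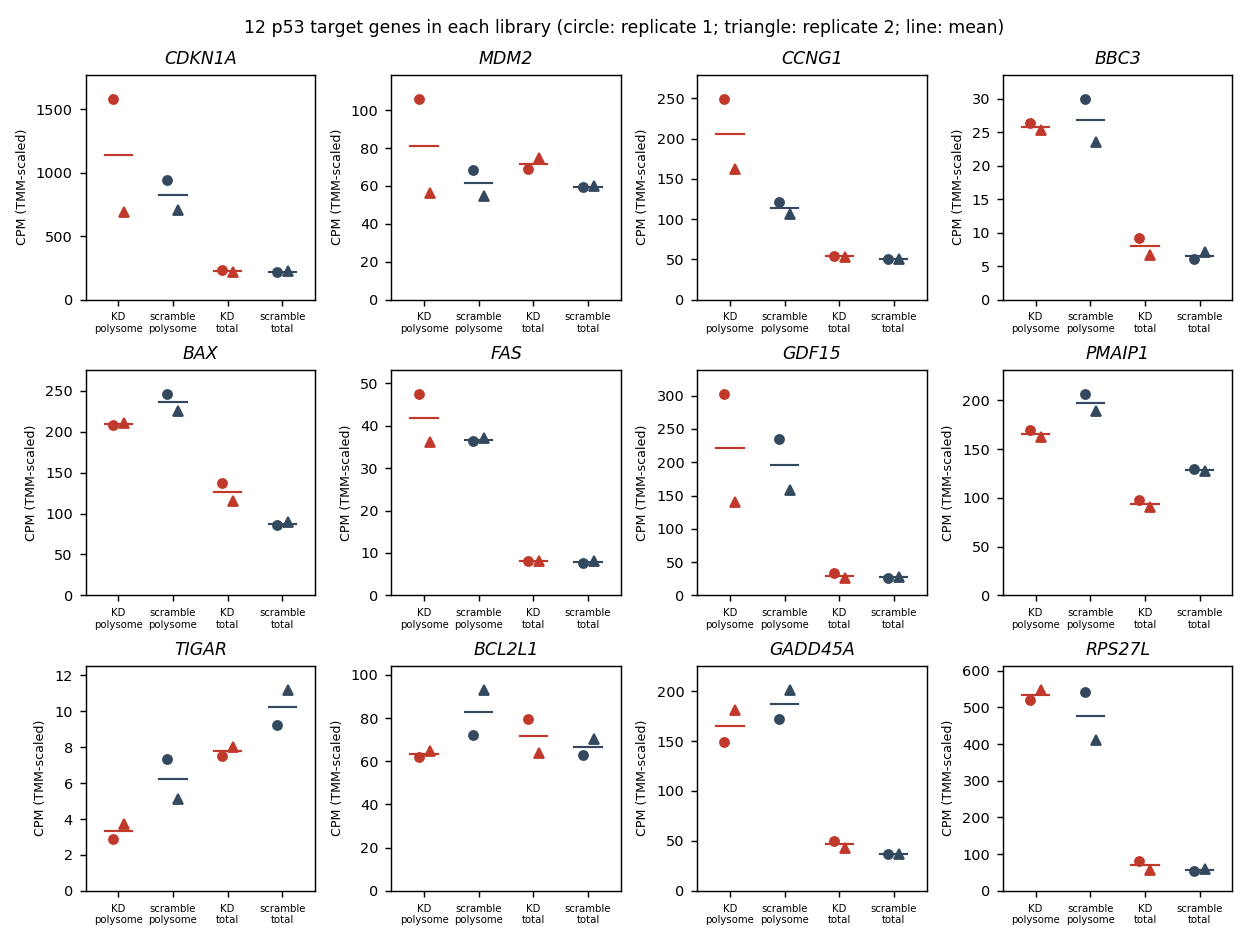
CPM of 12 p53 targets (vertical axes, linear from 0) in knockdown (red) and scramble (dark) libraries of polysomal and total RNA; circles are replicate 1, triangles replicate 2 and lines the mean of the 2. CCNG1 is the gene whose knockdown polysome libraries, at 249.4 and 162.3 CPM, stand well above the scramble ones, while the knockdown polysome replicates of CDKN1A, MDM2 and GDF15 lie far from each other.

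In polysomal RNA CCNG1 was the p53 target with the smallest p between hairpins, while TIGAR had the larger fold change. CCNG1 (chr5:163437569-163446151, plus strand, with no overlapping exon of another gene) encodes cyclin G1, which recruits a phosphatase that activates MDM2. It had 249.4 and 162.3 CPM in knockdown polysomes, against 121 and 105.9 CPM in scramble polysomes. Both knockdown libraries lay above both scramble libraries, and the knockdown libraries differed from each other by more than the scramble ones did. CCNG1 rose by DESeq2 (log2 fold change 0.86 ± 0.21; adjusted p = 0.00964) and did not pass edgeR (0.86 ± 0.19; unadjusted p = 0.000950, adjusted p = 0.164). In total RNA CCNG1 had 54.2 and 53.7 CPM in knockdown cells, against 51.1 and 51.2 CPM in scramble cells (0.08 ± 0.19; edgeR adjusted p = 1). The size of the polysomal difference rested in part on knockdown polysome replicate 1: it was 0.48 (edgeR adjusted p = 0.308) without that library and 1.07 (adjusted p = 0.0342) without knockdown polysome replicate 2. With the 4 polysome libraries fitted alone edgeR gave an adjusted p of 0.364.

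Among the 31 genes edgeR called 0 higher and 0 lower in polysomal RNA, against 0.00616% of tested genes in each direction. DESeq2 called 1 higher, CCNG1, against 0.67% of all genes, and 0 lower, against 0.955%. At an unadjusted p under 0.05 edgeR had 1 higher (5.37% of all tested genes) and 2 lower (7.89%). On the log2 scale 14 lay above 0 and 17 below, with a median of −0.01 both here and over all tested genes. Groups did not overlap for 2 genes on the higher side, CCNG1 and SPATA18 (6.45%; 15.5% of all tested genes), and for 4 on the lower side, BAX, BCL2L1, PMAIP1 and TIGAR (12.9%; 18.5%).

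TIGAR (chr12:4307763-4354593, plus strand), a phosphatase that lowers glycolysis and spares antioxidant capacity, was on the lower side in polysomes. It had 2.90 and 3.73 CPM in knockdown polysomes, against 7.36 and 5.11 CPM in scramble polysomes. The groups did not overlap (log2 fold change −0.92 ± 0.30; edgeR unadjusted p = 0.0107, adjusted p = 0.250; DESeq2 adjusted p = 0.183). In total RNA TIGAR had 7.53 and 8 CPM in knockdown cells, against 9.24 and 11.2 CPM in scramble cells (−0.40 ± 0.27; edgeR adjusted p = 1). Its levels are low, and 45.6% of its exonic bases overlap other genes, most of that share on the same strand.

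BCL2L1, which encodes the survival protein BCL-XL, had 62 and 64.7 CPM in knockdown polysomes, against 72.1 and 93.1 CPM in scramble polysomes. The groups did not overlap (log2 fold change −0.38 ± 0.17; edgeR unadjusted p = 0.0486, adjusted p = 0.373). Of the exonic bases of BCL2L1 43% overlap the antisense gene ABALON. BAX had 207.9 and 210.6 CPM in knockdown polysomes, against 246 and 226 CPM in scramble polysomes (−0.17 ± 0.14; edgeR adjusted p = 0.641), so its knockdown libraries lay below the scramble ones here and above them in total RNA. PMAIP1 had 169.4 and 162.2 CPM in knockdown polysomes, against 206.4 and 188.9 CPM in scramble polysomes (−0.25 ± 0.14; edgeR adjusted p = 0.449), the same order as in total RNA.

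Several classical targets had wide spread between the knockdown polysome replicates. CDKN1A had 1584 and 692 CPM in knockdown polysomes, against 944.2 and 705.3 CPM in scramble polysomes (log2 fold change 0.46 ± 0.31; edgeR adjusted p = 0.546). MDM2 had 106 and 56.5 CPM in knockdown polysomes, against 68.4 and 54.9 CPM in scramble polysomes (0.40 ± 0.25; edgeR adjusted p = 0.508). GDF15 had 302.3 and 140 CPM in knockdown polysomes, against 235 and 157.6 CPM in scramble polysomes (0.17 ± 0.31; edgeR adjusted p = 0.866). In each of these the scramble values lay between or beside the knockdown values, and the groups overlapped. Without knockdown polysome replicate 1 the fold changes turned negative, at −0.29 for CDKN1A, −0.16 for MDM2 and −0.53 for GDF15. FAS had 47.4 and 36.2 CPM in knockdown polysomes, against 36.3 and 37 CPM in scramble polysomes (0.19 ± 0.18; edgeR adjusted p = 0.691), and −0.05 without that library. BBC3 had 26.3 and 25.4 CPM in knockdown polysomes, against 30 and 23.5 CPM in scramble polysomes (−0.05 ± 0.22; edgeR adjusted p = 0.971).

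Medians by role in polysomes are given as a description, and differences between roles were not tested. Of the 6 arrest genes 5 lay above 0 with a median of 0.34. Of the 12 genes of apoptosis and survival 9 lay below 0 with a median of −0.09. The lowest of the 12 was the survival gene BCL2L1 at −0.38. Over all 16228 tested genes 7441 lay above 0 and 8349 below. Among the arrest genes CDKN1A turned to −0.29 without knockdown polysome replicate 1, as given above. BTG2, an antiproliferative cofactor of mRNA deadenylation, had 18 and 5.35 CPM in knockdown polysomes, against 10.5 and 5.52 CPM in scramble polysomes (log2 fold change 0.55 ± 0.48; edgeR adjusted p = 0.657). PLK3, a stress-responsive kinase, had 82.3 and 61.5 CPM in knockdown polysomes, against 62.5 and 60.7 CPM in scramble polysomes (0.22 ± 0.17; edgeR adjusted p = 0.608). For both genes the value of knockdown polysome replicate 2 lay within or close to the scramble range. The repair genes had a median of −0.12 and the metabolism and stress genes one of 0.17.

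**Figure D2:**
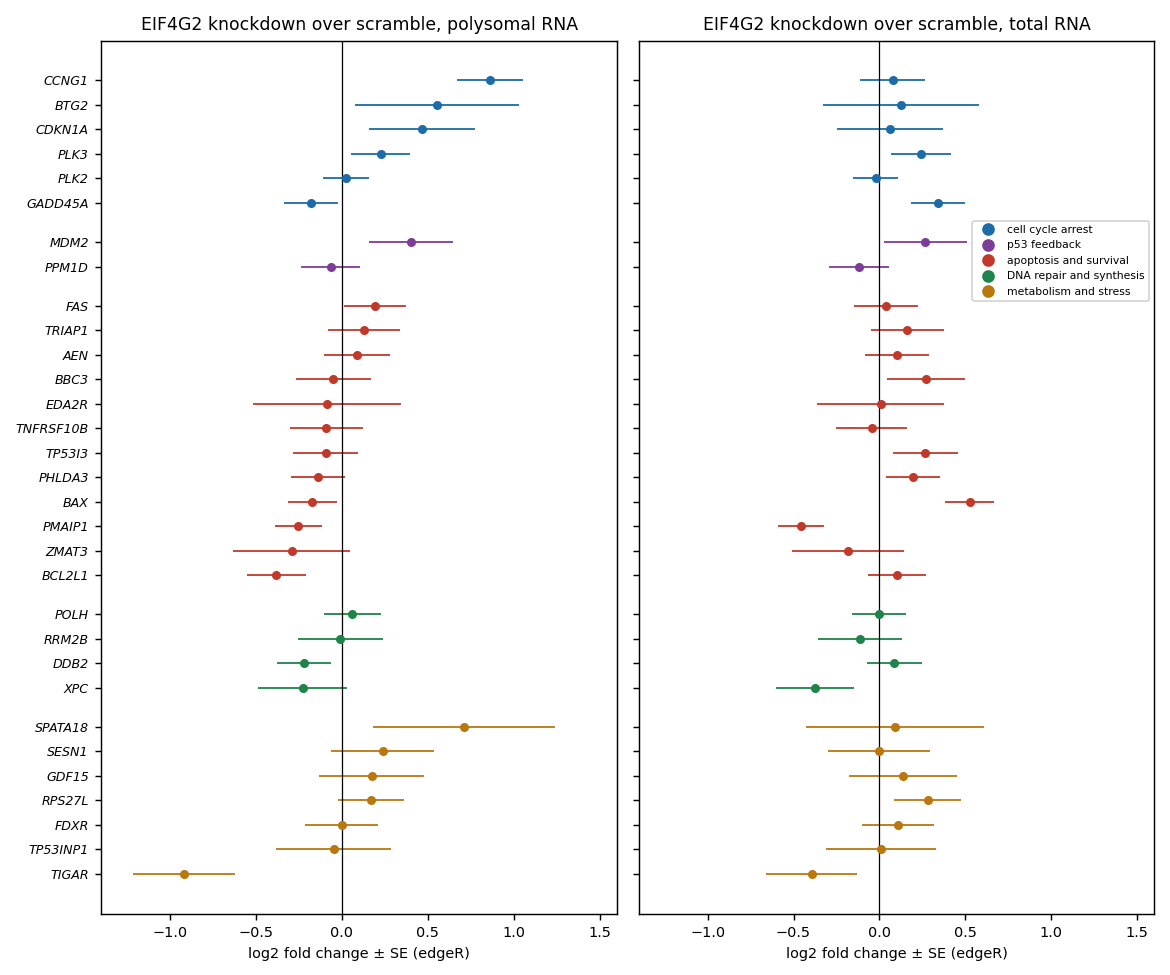
Log2 fold change of knockdown over scramble with its SE (horizontal axis, edgeR) for the 31 p53 targets, in polysomal RNA (left) and total RNA (right), with genes grouped and coloured by role and ordered within a role by the polysomal value. CCNG1 at 0.86 and TIGAR at −0.92 lie farthest from 0 in polysomal RNA, and BAX at 0.525 and PMAIP1 at −0.46 in total RNA.

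The change in the ratio of polysomal to total mRNA, the interaction of hairpin and fraction, passed the test for 0 of the 31 genes. edgeR called 0% of all tested genes in either direction, and DESeq2 called 0 of the 31, against 0.00616% of all genes higher and 0.0185% lower. At an unadjusted p under 0.05 edgeR had 1 of the 31 higher (1.95% of all tested genes) and 2 lower (4.33%). BAX had the smallest p, with a log2 ratio change of −0.70 ± 0.20 (unadjusted p = 0.00559, adjusted p = 0.776; DESeq2 adjusted p = 0.412). CCNG1 followed on the other side at 0.78 ± 0.27 (edgeR unadjusted p = 0.0146, adjusted p = 0.776), and GADD45A on the same side as BAX at −0.52 ± 0.22 (unadjusted p = 0.0415, adjusted p = 0.776). Of the 12 genes of apoptosis and survival 10 had a ratio change below 0, with a median of −0.10. Of the 6 arrest genes 4 lay above 0, with a median of 0.22. Over all 16228 tested genes 9074 lay below 0 and 7154 above. Over all 31 genes the median was −0.02, against −0.07 over all tested genes. Without knockdown polysome replicate 1 the median of the 31 was −0.37 and that of all genes −0.11. Without knockdown polysome replicate 2 they were 0.15 and −0.13, so that the 31 genes stood below all genes in one case and above them in the other.

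Between polysomal and total RNA the p53 targets differed by far more than between hairpins. In knockdown cells edgeR called 16 of the 31 higher in polysomal RNA (51.6%; 28.9% of all tested genes) and 7 lower (22.6%; 34.1%), with a median log2 fold change of 0.82, against −0.16 over all genes. In scramble cells it called 15 higher (48.4%; 29.7%) and 7 lower (22.6%; 33.7%), with a median of 0.62, against −0.17 over all genes. Both polysome libraries lay above both total libraries for 18 targets in knockdown cells (58.1%; 36.6% of all tested genes) and 19 in scramble cells (61.3%; 38.8%), and below them for 8 (25.8%; 44.9%) and 7 (22.6%; 46.1%). These directions depend on the scaling of the libraries. With library totals alone, without TMM, 9 were called higher and 13 lower in knockdown cells, and 10 higher and 15 lower in scramble cells, since the median of all genes then shifted to −1.22 and −1.16. Relative to the median of all genes the 31 stood 0.98 higher in knockdown and 0.78 higher in scramble cells, and with library totals alone these values were again 0.98 and 0.78. Mitochondrially encoded genes took 14.5 and 16.3% of the counts of knockdown polysome libraries and 7.12 and 17.5% of those of scramble polysome libraries. In total libraries they took 3.88 to 4.21%. Ribosomal protein genes took 12.5 to 17.7% of the counts of polysome libraries and 4.25 to 5.63% of those of total libraries. The part of both kinds of genes in the difference between fractions was not tested. A level in polysomal RNA is relative to other mRNAs and not an amount per cell.

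The genes with the largest values toward polysomes in scramble cells were RPS27L, GDF15 and GADD45A. RPS27L encodes a ribosomal protein relative of RPS27 that takes part in control of MDM2. It had 520.5 and 548.2 CPM in polysomal RNA, against 80.9 and 57.5 CPM in total RNA of knockdown cells (log2 fold change 2.95 ± 0.21; edgeR adjusted p = 1.3e-06). In scramble cells it had 541.1 and 410 CPM in polysomal RNA, against 54.5 and 59.5 CPM in total RNA (3.06 ± 0.21; edgeR adjusted p = 1.15e-06). How reads that match both RPS27L and RPS27 were counted is not given in the sources used here, so these levels are uncertain. GDF15 was higher in polysomal RNA in knockdown cells (2.90 ± 0.33; edgeR adjusted p = 2.19e-05) and in scramble cells (2.87 ± 0.33; edgeR adjusted p = 2.22e-05), from the levels given above. GADD45A had 148.8 and 181.6 CPM in polysomal RNA, against 49.9 and 43.1 CPM in total RNA of knockdown cells (1.83 ± 0.16; edgeR adjusted p = 4.39e-06). In scramble cells GADD45A had 172.2 and 201.4 CPM in polysomal RNA, against 36.9 and 36.5 CPM in total RNA (2.35 ± 0.17; edgeR adjusted p = 1.27e-06). None of these 3 genes had overlapping fractions in either kind of cell.

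The genes farthest on the other side in scramble cells were XPC, POLH and EDA2R. XPC had 5.74 and 6.45 CPM in polysomal RNA, against 17.1 and 24.9 CPM in total RNA of knockdown cells (log2 fold change −1.79 ± 0.25; edgeR adjusted p = 9.84e-05). In scramble cells it had 8.18 and 6.06 CPM in polysomal RNA, against 26.1 and 28.3 CPM in total RNA (−1.93 ± 0.24; edgeR adjusted p = 4.33e-05). POLH, the polymerase that copies past ultraviolet lesions, had 18.2 and 14.9 CPM in polysomal RNA, against 47 and 48.2 CPM in total RNA of knockdown cells (−1.52 ± 0.16; edgeR adjusted p = 1.51e-05). In scramble cells POLH had 16.2 and 15.7 CPM in polysomal RNA, against 48.7 and 46.6 CPM in total RNA (−1.58 ± 0.16; edgeR adjusted p = 1e-05). EDA2R, a receptor for ectodysplasin A2, had 3.10 and 1.27 CPM in polysomal RNA, against 5.34 and 7.61 CPM in total RNA of knockdown cells (−1.54 ± 0.41; edgeR adjusted p = 0.00714). This call was lost without replicate 2 of knockdown total RNA (−1.29; edgeR adjusted p = 0.0717). In scramble cells EDA2R had 2.65 and 2.08 CPM in polysomal RNA, against 6.27 and 6.61 CPM in total RNA (−1.44 ± 0.40; edgeR adjusted p = 0.00869). The fractions did not overlap for any of the 3 in either kind of cell.

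Targets of the same role were split between the fractions. Of the 6 arrest genes 4 were higher in polysomal RNA in both kinds of cells: CDKN1A (2.31 in knockdown, 1.91 in scramble), CCNG1 (1.93 and 1.15), GADD45A and PLK3 (1.85 and 1.87). PLK2, a kinase of centriole duplication, was lower (−0.40 in knockdown and −0.44 in scramble), and BTG2 was not called. Of the 12 genes of apoptosis and survival 7 were higher in both kinds of cells, namely BAX, BBC3, FAS, PMAIP1, TP53I3, PHLDA3 and TRIAP1. BBC3 had log2 fold changes of 1.70 and 2.02 in knockdown and scramble cells, and FAS 2.38 and 2.22. The other death receptor of the list, TNFRSF10B, a receptor for TRAIL, was lower in polysomal RNA (−0.78 in knockdown, −0.73 in scramble; without replicate 2 of knockdown total RNA −0.73 in knockdown cells, edgeR adjusted p = 0.0546), as were EDA2R and the exonuclease gene AEN (−0.72 and −0.71). Of the 2 feedback genes PPM1D, a phosphatase that removes activating marks from p53, was higher (1.03 and 0.98), and MDM2 was not called (0.18 ± 0.24 and 0.05 ± 0.24; edgeR adjusted p = 0.532 and 0.875).

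In the repair group DDB2, which recognizes ultraviolet damage, was higher in polysomal RNA (1.39 in knockdown, 1.70 in scramble), opposite to XPC and POLH. RRM2B, the p53-induced ribonucleotide reductase subunit, was not called (0.35 ± 0.25 and 0.25 ± 0.25). Among the metabolism and stress genes TIGAR was lower (−1.23 ± 0.29, edgeR adjusted p = 0.00365, in knockdown; −0.71 ± 0.27, edgeR adjusted p = 0.0407, in scramble). SESN1, a stress-induced inhibitor of growth signalling, was called higher in knockdown cells (0.85 ± 0.30; edgeR adjusted p = 0.0283) and not in scramble cells (0.62 ± 0.30; edgeR adjusted p = 0.0939). The difference between these values, a ratio change of 0.24 ± 0.42, did not pass the test (edgeR adjusted p = 0.962). FDXR, SPATA18, TP53INP1, ZMAT3 and BCL2L1 were not called in either kind of cell.

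**Figure D3:**
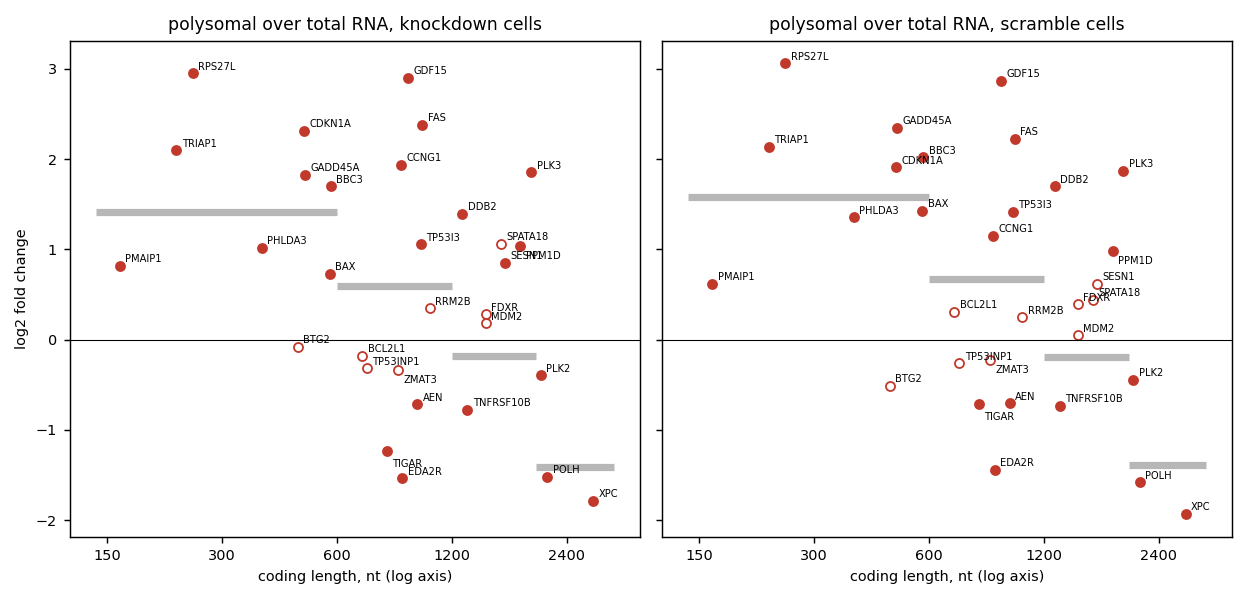
Log2 fold change of polysomal over total RNA (vertical axis) against coding length in nucleotides (horizontal log axis) for the 31 p53 targets in knockdown (left) and scramble (right) cells; filled points have an edgeR adjusted p under 0.05, and grey bars are medians of all genes in 4 classes of coding length. The medians of all genes drop from 1.42 to −1.42 across the classes in knockdown cells, and the p53 targets scatter around them, with GDF15 and FAS above and EDA2R and TIGAR below.

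The polysome to total difference went with coding length over all genes, and the values for the p53 targets are given beside it. Over 12684 tested genes with a coding length in GENCODE v29, Spearman's rho between coding length and the log2 fold change was −0.58 in knockdown and −0.61 in scramble cells. Over the 31 p53 targets it was −0.32 and −0.40, as a description across genes of the same libraries, which share depth and scaling. With transcript length in place of coding length, rho was −0.457 in knockdown and −0.559 in scramble cells over the 31. Over all genes it was then −0.558 and −0.605, closer to the values of the targets. The 31 are shorter than most, with a median coding length of 924 nt, against 1428 nt over all genes. In the class of up to 600 nt, the 9 targets had a median log2 fold change of 1.70 in knockdown and 1.91 in scramble cells, against 1.42 and 1.58 over all 1549 genes. The 11 targets between 600 and 1200 nt stood at −0.18 and 0.25, below the 0.59 and 0.67 of all 3535 genes there. The 8 between 1200 and 2000 nt stood at 0.94 and 0.53, above the −0.19 of all 3651 genes in both kinds of cells. The 3 longest (PLK2, POLH and XPC) had medians of −1.52 and −1.58, against −1.42 and −1.39 over all 3949 genes above 2000 nt. Those 2 medians are the values of POLH. PLK2 stood at −0.40 in knockdown and −0.44 in scramble cells, and XPC at −1.79 and −1.93.

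The p53 targets as a set were higher in replicate 1 than in replicate 2 of both polysome groups. In knockdown polysomes 25 of the 31 were higher in replicate 1 (80.6%; 46.7% of all genes), with a median log2 difference of 0.38 against 0 over all genes. In scramble polysomes 24 of the 31 were higher in replicate 1 (77.4%; 48.8%), with a median of 0.19 against 0. More than 1.5-fold higher in replicate 1 were 10 targets in knockdown polysomes (13.5% of all genes) and 4 in scramble polysomes (11.9%). The widest of these in knockdown polysomes were BTG2, CDKN1A, GDF15, SESN1 and EDA2R. In total RNA 19 targets were higher in replicate 1 of the knockdown libraries (61.3%; 52.9% of all genes) and 10 in replicate 1 of the scramble libraries (32.3%; 50.8%). By more than 1.5-fold it was 0 targets in each, where the share of all genes was also small (3.12% in knockdown and 1.61% in scramble). Replicates 1 and 2 of the scramble polysomes also differed in their share of mitochondrially encoded counts, at 7.12 and 17.5% (14.5 and 16.3% in knockdown polysomes). The replicates of a group have no order, and what sets the polysome libraries apart was not tested. In both polysome groups the spread of several targets is as large as or larger than the difference between hairpins.

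**Figure D4:**
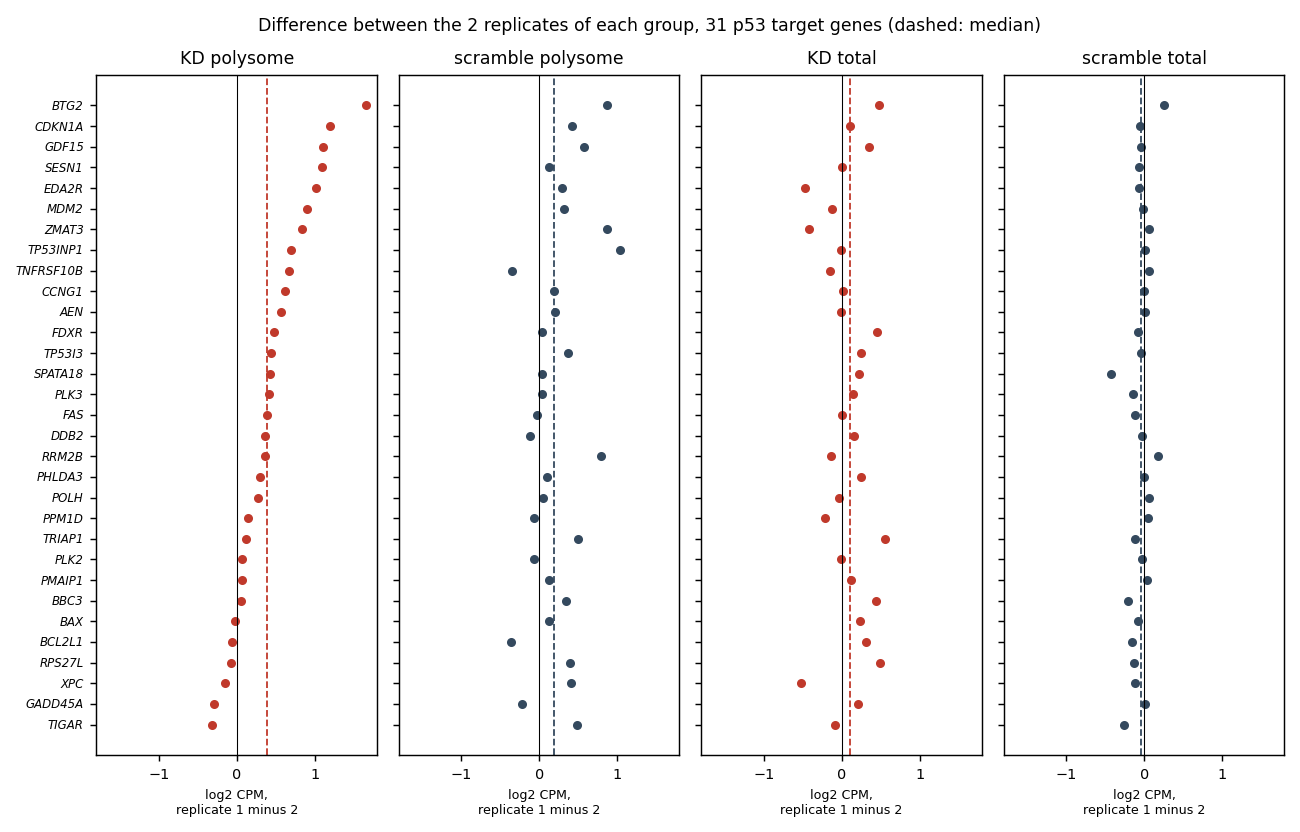
Log2 CPM of replicate 1 minus replicate 2 (horizontal axes) for the 31 p53 targets in the 4 groups, ordered by the knockdown polysome value, with the median dashed. Points lie to the right of 0 for 25 targets in knockdown polysomes and 24 in scramble polysomes, while those of the total libraries lie around 0.

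Other genes of the pathway were read from lists drawn up from the known pathway and not by how they moved. Of 29 tested genes of a list of p53 regulators and partners, edgeR called 0 in any knockdown comparison, and DESeq2 called 1 in total and 1 in polysomal RNA, H2AX in both. At an unadjusted p under 0.05 edgeR had 1 of the 29 higher and 0 lower in total RNA (2.66 and 1.02% of all tested genes). It had 2 and 1 in polysomal RNA (5.37 and 7.89%), and 0 and 1 in the ratio (1.95 and 4.33%). H2AX, the histone variant phosphorylated around DNA breaks, had 380.8 and 332.1 CPM in knockdown total RNA, against 160.3 and 164.5 CPM in scramble total RNA (log2 fold change 1.13 ± 0.15; edgeR adjusted p = 0.0504; DESeq2 adjusted p = 8.73e-11). In polysomal RNA H2AX had 620.6 and 685.4 CPM in knockdown cells, against 422.4 and 417.6 CPM in scramble cells (0.64 ± 0.15; edgeR adjusted p = 0.172; DESeq2 adjusted p = 0.00402). Both knockdown libraries lay above both scramble ones in each fraction. CDKN2A, which encodes p16 and ARF, had 418.8 and 332.9 CPM in knockdown total RNA, against 285.7 and 293.6 CPM in scramble total RNA (0.38 ± 0.18; edgeR adjusted p = 1). The kinase ATR stood at −0.42 ± 0.24 in total RNA, and TP53BP2 at −0.49 ± 0.20 in polysomal RNA (edgeR adjusted p = 1 and 0.324). DAXX had 0.675 and 10.4 CPM in knockdown polysomes, against 0.379 and 0.890 CPM in scramble polysomes, a difference carried by 1 library.

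Of 52 tested further p53 targets, edgeR and DESeq2 called 0 in each knockdown comparison. At an unadjusted p under 0.05 edgeR had 2 higher and 0 lower in total RNA (2.66 and 1.02% of all tested genes). It had 3 higher and 4 lower in polysomal RNA (5.37 and 7.89%), and 0 higher and 3 lower in the ratio (1.95 and 4.33%). TSKU, a secreted proteoglycan, had 44.2 and 38.8 CPM in knockdown total RNA, against 32.8 and 32 CPM in scramble total RNA (0.36 ± 0.15). TSKU in polysomes had 49.9 and 44.2 CPM in knockdown cells, against 33.1 and 37.5 CPM in scramble cells (0.41 ± 0.16; edgeR adjusted p = 0.310). PERP, a membrane protein of p53 apoptosis, stood at 0.46 ± 0.20 in total RNA, and the esterase CES2 at −0.44 ± 0.26 there and −0.77 ± 0.28 in polysomes. PIDD1, a scaffold for caspase-2, had 12.4 and 14 CPM in knockdown polysomes, against 17.5 and 22.2 CPM in scramble polysomes (−0.59 ± 0.19; edgeR adjusted p = 0.244). Its total levels were 29.8 and 29.8 CPM in knockdown cells, against 24.4 and 25.7 CPM in scramble cells, and its ratio change was −0.84 ± 0.26 (edgeR adjusted p = 0.776). IER5 had a ratio change of −0.45 ± 0.20, and SCO2, at under 1.1 CPM in every library, one of −3.48 ± 1.46.

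Genes repressed downstream of p53 through p21 and the DREAM complex, most of them genes of DNA replication and mitosis, were also not called (0 of 28 by edgeR and by DESeq2 in each knockdown comparison). At an unadjusted p under 0.05 edgeR had 0 higher and 2 lower in total RNA (2.66 and 1.02% of all tested genes). It had 1 and 4 in polysomal RNA (5.37 and 7.89%), and 1 and 1 in the ratio (1.95 and 4.33%). Their median log2 fold change was −0.03 in total and −0.14 in polysomal RNA, where 22 of the 28 lay below 0. Over all tested genes 8349 of 16228 lay below 0 in polysomal RNA, with a median of −0.01. MKI67, the proliferation marker Ki-67, had 179.6 and 251.2 CPM in knockdown total RNA, against 326 and 306.6 CPM in scramble total RNA (−0.55 ± 0.24; edgeR adjusted p = 1). In polysomes MKI67 had 11 and 19 CPM in knockdown cells, against 28.1 and 21.9 CPM in scramble cells (−0.75 ± 0.26; edgeR adjusted p = 0.274). Both knockdown libraries lay below both scramble ones in each fraction. The mitotic kinases BUB1 and BUB1B stood at −0.34 ± 0.13 and −0.39 ± 0.20 in total RNA, and E2F2 and MCM3 at −0.72 ± 0.25 and −0.40 ± 0.15 in polysomes. AURKB and FOXM1 had ratio changes of −0.58 ± 0.25 and 0.67 ± 0.29 (edgeR adjusted p = 0.776 for both).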

How the data were processed

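Counts per gene symbol were deposited by the authors as whole numbers without normalization. Per the submitters' processing notes reads were handled with Subread 2.0.1 and its featureCounts, HISAT2 2.1.0, bcl2fastq 2.19.0, Trimmomatic 0.36, R 4.1.2 and DESeq2 on GRCh38, with neither order nor options given. Annotation, strand setting and multi-mapping rule are not given in the sources used here. Per the labels, RNA was treated with DNase and enriched for polyA. Counts were filtered with filterByExpr, scaled by TMM and fitted in edgeR 4.0.16 (R 4.3.3), by a robust quasi-likelihood model with 1 mean for each of the 4 groups over all 8 libraries. Each SE was obtained as the size of the log2 fold change over the root of its F statistic. Benjamini-Hochberg adjustment covered all 16228 tested genes (threshold 0.05). DESeq2 1.42.0 was the alternative. The submitters describe triplicates, while the series holds 2 libraries per group, and all 8 were used. Coding lengths and overlaps came from GENCODE v29, promoters from RefSeq.

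The 31 genes and all lists were chosen with earlier results of these data known, so no count over them is independent support. Full values are given for CDKN1A, MDM2, BBC3, BAX, FAS and GDF15, for targets with an adjusted p (either tool) or unadjusted edgeR p under 0.05 in a knockdown comparison, and for the 3 largest positive and 3 largest negative scramble fraction differences. MDM4, EIF4G2 and the 3 smallest edgeR p of each pathway list and knockdown comparison are also named, and other genes were chosen after their values were seen. Some items of the rule are not reported here.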

Additional observations from a re-analysis of the deposited data

Results flagged for a closer look

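BAX was the 1 gene of the 31 whose knockdown libraries lay on opposite sides of the scramble libraries in the 2 fractions. Its log2 fold change was −0.17 in polysomal RNA and 0.525 in total RNA, a difference of −0.7. The test of that difference did not pass after adjustment (edgeR unadjusted p = 0.00559, adjusted p = 0.776). Over all tested genes 5.41% showed such opposite, non-overlapping groups, against 3.23% of the 31. With 1 library left out the difference ran from −0.81 to −0.57, with edgeR adjusted p from 0.191 to 1.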

How the results depend on the processing

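Of 876 values of single genes under other settings, 840 kept their direction and side of the threshold. The targets called between fractions, higher and lower together, stayed within 1.5 times of their count in each setting tried. Their directions did not hold. With library totals alone, as given above, more were called lower than higher in both kinds of cells, the reverse of the split under TMM. Calls over all genes moved more. In total RNA edgeR called 0 genes, and 38 with no filter on low counts, 26 by DESeq2 and 10 with the 4 total libraries alone. In polysomal RNA it called 2, and 1 with library totals alone, 502 with no filter, 228 by DESeq2 and 0 to 183 with 1 library left out (183 without replicate 2 of the knockdown polysomes; 0 without its replicate 1, either knockdown total library or scramble polysome replicate 2). The p53 targets called there were 0, and 1 with no filter, 1 by DESeq2 and 0 to 1 with 1 library left out, each time CCNG1. In the ratio edgeR called 0 genes, and 64 with no filter, 4 by DESeq2 and 0 to 2 with 1 library left out. The cause of these moves was not tested.

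Signs turned for genes near 0 or with unlike replicates. With library totals alone FAS turned to −0.0007 in total RNA, GDF15 to −0.0118 in the ratio, BAX to −0.33 and MDM2 to −0.86 between fractions of knockdown cells and MDM2 to −0.95 between those of scramble cells. The last was also −0.0032 with RLE size factors, −0.0033 by DESeq2 and −0.0947 with no filter, and the GDF15 ratio −0.0065 with no filter. With 1 library left out, log2 fold changes in total RNA ran from −0.0548 to 0.31 for GDF15, −0.0648 to 0.25 for BCL2L1 and −0.021 to 0.10 for FAS. In polysomal RNA they ran from −0.29 to 0.88 for CDKN1A, −0.16 to 0.72 for MDM2, −0.0512 to 0.31 for FAS, −0.53 to 0.56 for GDF15 and −0.28 to 0.11 for BBC3. In the ratio they ran from −0.65 to 0.44 for GDF15, −0.33 to 0.83 for CDKN1A, −0.41 to 0.47 for MDM2 and −0.0705 to 0.29 for FAS. Between fractions MDM2 ran from −0.44 to 0.44 in knockdown and −0.23 to 0.14 in scramble cells. The median of the 31 genes in polysomal RNA ran from −0.27 to 0.12.

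The data gave no clear pairing of replicate numbers: differences of replicate 1 minus 2 had a Pearson's r of −0.199 between the hairpins in total RNA and 0.117 in polysomal RNA over 16228 genes, and −0.138 to 0.046 between fractions. Over the 31 targets alone r was 0.389 between the polysome groups, −0.162 between the total groups and −0.029 to 0.463 between fractions. Under the replicate block edgeR called 0 genes in total RNA and 3 in polysomes, 0 in the ratio, and 0 targets in each. Between fractions it called 9774 genes in knockdown and 9932 in scramble cells, 23 and 21 targets among them. A block within each fraction, chosen after seeing the data, gave 0, 3 and 0 genes, and between fractions 16 targets higher and 7 lower in knockdown cells and 16 and 6 in scramble cells, and turned the GDF15 ratio to −0.0306. Depth limits low genes such as SPATA18 and EDA2R.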

Other observations

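Genes of the integrated stress response, the ATF4 program that shares GDF15 and PMAIP1 with p53 as known targets, stood on the higher side in total RNA and on the lower side in the ratio. The same total libraries enter both comparisons with opposite sign, so these are not separate observations. GDF15 and PMAIP1 are not among the 16 genes counted here. PMAIP1 stood at −0.46 in total RNA and 0.20 in the ratio, opposite to the 16 in both, and GDF15 at 0.14 and 0.03. In polysomal RNA 7 of the 16 lay above 0 and 9 below, with a median log2 fold change of −0.14, against −0.01 over all tested genes. In total RNA 14 of 16 lay above 0 with a median of 0.29, against 8575 of 16228 and 0.02 over all tested genes. The change in the ratio of polysomal to total mRNA lay below 0 for 16 of 16, with a median of −0.49. Over all tested genes it did so for 9074 of 16228, with a median of −0.07. edgeR and DESeq2 called 0 of the 16 in total RNA or in the ratio. At an unadjusted edgeR p under 0.05, 5 were higher in total RNA (2.66% of all tested genes) and 4 lower in the ratio (4.33%).

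ATF4 had 339 and 269.8 CPM in knockdown total RNA, against 213.7 and 220.5 CPM in scramble total RNA. In polysomes it had 1317 and 1361 CPM in knockdown cells, against 1001 and 999.2 CPM in scramble cells (log2 fold change 0.42 ± 0.17; edgeR adjusted p = 0.323). Both knockdown libraries lay above both scramble ones in each fraction. CHAC1, which degrades glutathione, had 7.53 and 7.61 CPM in knockdown total RNA, against 3.34 and 4.70 CPM in scramble total RNA (0.92 ± 0.22; edgeR adjusted p = 0.775). In polysomes CHAC1 had 38.8 and 40.7 CPM in knockdown cells, against 52.3 and 40.8 CPM in scramble cells, which gave a ratio change of −1.15 ± 0.29 (edgeR adjusted p = 0.776). SLC7A11, the cystine transporter, stood at 1.29 ± 0.31 in total RNA and at −1.03 ± 0.44 in the ratio. CEBPB stood at 0.52 ± 0.15 in total RNA, PHGDH at −0.53 ± 0.20 in the ratio, and TRIB3 and NUPR1 at 0.29 ± 0.15 and −1.13 ± 0.47 in polysomes.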
